A study of Xenopus laevis with 6 samples.

Results

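Whole *Xenopus laevis* embryos injected with a *kdm3a* morpholino (MO) were compared with whole embryos injected with a *kdm5c* MO, gene model by gene model. The comparison used 4 of the 6 libraries of the series, chosen by the MO named in their labels: *kdm3a* MO 3 and 4 against *kdm5c* MO 1 and 2. Of the 35773 gene models with counts, 26092 passed the filter on low counts in these 4 libraries and were tested. The 2 control libraries entered no test and show where a gene stood in embryos of neither MO group. All 6 libraries were poly(A) RNA of whole embryos collected at NF stage 32, the late tailbud stage. The labels place the MO injections at the 2-cell stage, do not say whether the controls were injected, and give no clutch or number of embryos, so p-values measure only the spread between these libraries. The titles of the *kdm3a* MO libraries begin with another prefix than those of the other 4 libraries, so the MO and whatever this prefix marks cannot be told apart. The study describes its *kdm5c* MO as blocking translation, and the design of the *kdm3a* MO is not given in the sources used here.

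Both targets are histone demethylases of the Jumonji class, enzymes that take methyl groups off lysines of histone H3 and so help to set which genes are read. Kdm3a removes mono- and dimethyl marks from lysine 9, marks of silent chromatin, and is known in mammals for roles in spermatogenesis, metabolism and the response to low oxygen. Kdm5c removes di- and trimethyl marks from lysine 4, marks of active enhancers and promoters, and is known in humans for its part in X-linked intellectual disability. An MO is a synthetic antisense oligonucleotide that blocks translation or splicing of the RNA it pairs with, and some MOs are also known, from zebrafish, to set off cell death apart from that RNA. *X. laevis* is allotetraploid, so most genes have an L and an S copy, named here by those letters.

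The libraries did not group by MO. The total counts were 13943342 and 12838245 in *kdm5c* MO 1 and 2, and 20217436 and 13322018 in *kdm3a* MO 3 and 4. The 2 *kdm5c* MO libraries differed more than 4-fold in 2245 tested models (8.6%), and the 2 *kdm3a* MO libraries in 1863 (7.14%). Across the groups, *kdm5c* MO 2 and *kdm3a* MO 4 differed in 734 models, *kdm5c* MO 1 and *kdm3a* MO 3 in 1393 and *kdm5c* MO 2 and *kdm3a* MO 3 in 1563, each fewer than either pair within a group. Only *kdm5c* MO 1 and *kdm3a* MO 4 differed in more (3589). Markers of muscle, neurons, epidermis, cilia and neural crest were counted in every library, whereas the lens crystallin copies *cryba1.L* and *cryba1.S* were at 0 in control 1 and lower in *kdm3a* MO 4 (75 and 52 counts) than in the other morphant libraries (197 to 528 counts).

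**Figure D1:**
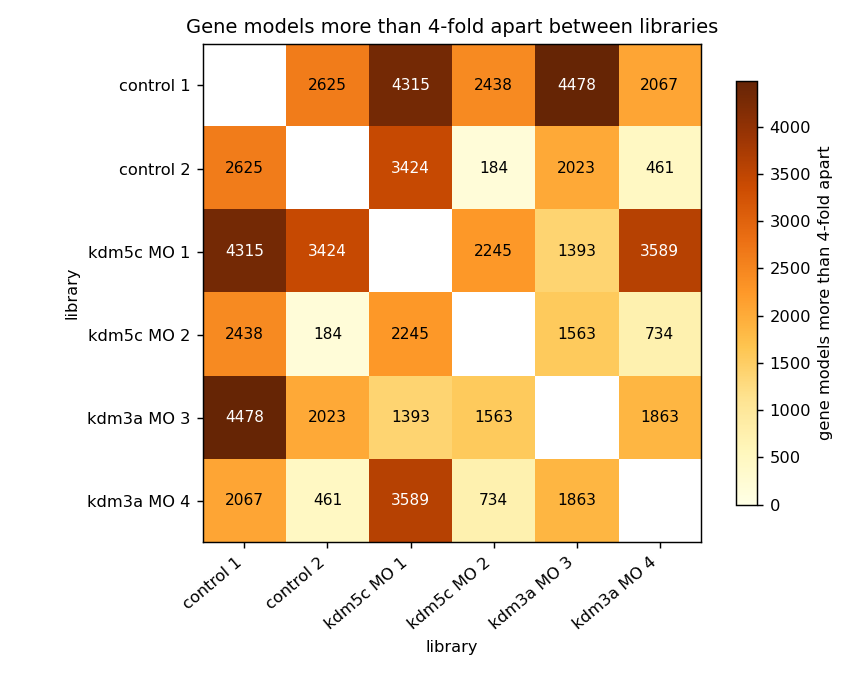
Number of tested gene models more than 4-fold apart on log2(CPM + 0.5) for each pair of the 6 libraries, with darker cells for more models. The pair *kdm5c* MO 2 and control 2 had the fewest (184), and 3 of the 4 pairs of a *kdm5c* MO with a *kdm3a* MO library (734, 1393 and 1563) had fewer than the replicates of either MO (2245 and 1863).

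Few genes differed between the MOs past the limits used in the study, a false discovery rate (FDR) below 0.01 and a fold change above 4 in edgeR's exact test. In *kdm3a* MO embryos 13 models were lower (0.0498% of those tested) and 1 was higher (0.00383%). The lower models were 9 without a symbol, of which 7 carry consecutive identifiers, and *nemf-like.L*, *nqo1.L*, *rassf1.S* and *loc100494768.L*. The single higher one was *myh15.L*. These calls depend on how the spread is estimated, since edgeR's quasi-likelihood test and an exact test with the spread of all 6 libraries each called 0, and DESeq2 called 23. Those 2 fits had 1096 and 1084 models with an unadjusted p below 0.05. Of the 14 models, 7 kept their call whichever library was left out, and the other 7 lost it both without *kdm3a* MO 3 and without *kdm3a* MO 4.

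With an unadjusted p below 0.05 there were 816 models lower in *kdm3a* MO embryos (3.13%) and 397 higher (1.52%). Both *kdm3a* MO libraries lay below both *kdm5c* MO libraries in 4216 models (16.2%) and above both in 4732 (18.1%), and these shares are the background for the gene groups below. The biological coefficient of variation of the 4 libraries was 0.583. The balance of directions rests on the scaling: the trimmed mean of M values (TMM) gave *kdm5c* MO 1 a factor of 0.739, against 1.07 to 1.16 in the others. Scaled by library size alone, 317 models were lower and 663 higher, and the all-gene median of the log2 fold change moved from 0.03 to 0.34. Leaving out *kdm3a* MO 4 also turned the balance, to 360 lower and 466 higher. No single gene could pass a permutation test here, since 2 libraries against 2 allow no two-sided p below 0.333.

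The controls were set beside each difference, although they share their title prefix with the *kdm5c* MO libraries and not with the *kdm3a* MO libraries. Among the 816 models lower in *kdm3a* MO embryos, both controls lay nearer to *kdm3a* MO in 328 (40.2%) and nearer to *kdm5c* MO in 127 (15.6%). Among the 397 higher models, both controls lay nearer to *kdm5c* MO in 179 (45.1%) and nearer to *kdm3a* MO in 71 (17.9%). Of all models tested, both controls were nearer to *kdm3a* MO in 33.1% and nearer to *kdm5c* MO in 25.4%. Thus both controls lay more often on the *kdm3a* MO side of a lower gene and on the *kdm5c* MO side of a higher gene. In many models the controls lay on opposite sides. Nearness to a group mean does not show which MO group changed, and the part of the title prefix was not tested.

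The targeted *kdm3a* mRNA was more abundant in *kdm3a* MO embryos than in *kdm5c* MO embryos, in both copies. *kdm3a.L* had 8588 and 5529 counts in *kdm3a* MO 3 and 4, against 609 and 905 in *kdm5c* MO 1 and 2. The controls had 1820 and 1338. Neither *kdm3a* MO value comes near any of the other 4. The log2 fold change was 2.58 (standard error 0.55, adjusted p = 0.0202), short of the FDR limit. Under DESeq2 and under library size alone *kdm3a.L* passed both limits. *kdm3a.S* had 9077 and 3534 counts in *kdm3a* MO embryos, against 1259 and 1255 in *kdm5c* MO embryos. The difference on the log2 scale was 1.58 (standard error 0.60, unadjusted p = 0.0108), and in CPM control 1 (264) lay between the *kdm3a* MO libraries (429 and 239). An MO that acts on translation can leave the level of the RNA as it is, and how the *kdm3a* MO acts is not given, so these levels are no check of the injections.

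*kdm5c* mRNA did not separate the groups. *kdm5c.L* stood at 142 and 129 CPM in *kdm5c* MO embryos, at 135 and 136 CPM in *kdm3a* MO embryos and at 116 and 109 CPM in controls. *kdm5c.S* was lowest in *kdm5c* MO 1 (34.7 CPM) and lay between 61.2 and 72.3 CPM in the other 5 libraries. The log2 fold change of *kdm5c.S* was 0.42 (standard error 0.57, unadjusted p = 0.472).

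Of the 14 models past both limits, 7 formed a run with consecutive identifiers, from Xelaev18038727m to Xelaev18038733m, none of which carries a symbol. Xelaev18038730m had 4783 and 2965 counts in *kdm5c* MO 1 and 2, but 66 and 18 in *kdm3a* MO 3 and 4. The controls stood apart from each other, at 2398 counts in control 1 and 14 in control 2. Xelaev18038728m was counted 859 and 808 times in *kdm5c* MO embryos, 12 and 4 times in *kdm3a* MO embryos, and 702 and 4 times in the controls. All 7 showed this order, with both *kdm5c* MO libraries and control 1 high and both *kdm3a* MO libraries and control 2 nearly empty. The log2 fold changes of Xelaev18038730m and Xelaev18038728m were -7.34 (standard error 0.71, adjusted p = 2.85e-11) and -7.40 (standard error 0.68, adjusted p = 4.22e-16).

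The other members of the run repeated the pattern at lower counts. Xelaev18038731m had 2309 and 1715 counts in *kdm5c* MO embryos against 42 and 8 in *kdm3a* MO embryos, with 1823 and 2 in the controls. Xelaev18038729m had 755 and 521 counts against 14 and 3, Xelaev18038732m 225 and 238 against 2 and 0, Xelaev18038733m 214 and 226 against 4 and 2, and Xelaev18038727m 179 and 144 against 2 and 0. Within the run only Xelaev18038733m and Xelaev18038727m lost their call when one *kdm3a* MO library was left out, with a highest adjusted p of 0.0125 and 0.049.

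The pattern stopped at both ends of the run. On one side, *zc4h2.L*, which encodes a zinc finger protein of neural development, was counted 584 and 275 times in *kdm5c* MO embryos and 686 and 325 times in *kdm3a* MO 3 and 4, a difference of -0.56 on the log2 scale (unadjusted p = 0.413). On the other side, *loc100489717-like.L* had 89 and 57 counts against 164 and 81 (log2 fold change -0.01), and Xetrov90020377m.L had at most 4 counts in any library. Further out, *las1l.L* and *mtmr8-like.L* had log2 fold changes of 0.11 and 0.21. The RefSeq table of assembly Xenopus_laevis_v10.1, used for order only, lists *las1l.L*, *zc4h2.L*, *asb12.2.L* and *asb12.L* in this same order on one chromosome. The models of the run carry no symbol to look up in that table, so no position is given. A second run, Xelaev18038249m to Xelaev18038251m, was lower in *kdm3a* MO embryos without passing the limits. Xelaev18038249m had 447 and 565 counts in *kdm5c* MO embryos, 181 and 287 in *kdm3a* MO embryos, and 14 and 421 in the controls (unadjusted p = 0.00968). Xelaev18038250m had 14 and 62 counts against 0 and 0, with 0 and 10 in the controls (unadjusted p = 0.000126), and Xelaev18038251m 46 and 46 against 7 and 0, with 0 and 20 in the controls (unadjusted p = 0.00236).

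Xelaev18014680m and Xelaev18027367m, also without symbols, had the same two-sided controls. Xelaev18014680m stood at 315 and 137 CPM in *kdm5c* MO embryos, 5.29 and 0.811 CPM in *kdm3a* MO embryos, and 74.5 and 1.06 CPM in controls 1 and 2 (log2 fold change -6.20, standard error 0.87). Xelaev18027367m stood at 51.8 and 85.7 CPM, 6 and 3.25 CPM, and 88.2 and 7.92 CPM in the same order (log2 fold change -3.89, standard error 0.60). In 10 of the 13 lower models control 1 was on the *kdm5c* MO side and control 2 on the *kdm3a* MO side, and in 11 of all 14 models the controls were themselves more than 4-fold apart. Differences of more than 4-fold in these models therefore occurred between the controls too.

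*nemf-like.L* is named for nemf, a factor that acts on stalled ribosomes. It was counted 7977 and 6756 times in *kdm5c* MO embryos, 622 and 349 times in *kdm3a* MO embryos, and 3037 and 737 times in the controls. The log2 fold change was -4.64 (standard error 0.59, adjusted p = 9.15e-08), and the call was lost without *kdm3a* MO 3 and without *kdm3a* MO 4 (highest adjusted p = 0.124). Here too control 1 stood on the *kdm5c* MO side.

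*myh15.L* was the one model that passed both limits upward. It encodes a myosin heavy chain of slow-tonic and ventricular type, known from birds. It was counted 891 and 615 times in *kdm3a* MO 3 and 4, 6 and 0 times in *kdm5c* MO embryos and 22 and 2 times in the controls. In CPM the *kdm3a* MO libraries were alike (42.1 and 41.6) and every other library was at or below 1.49. The log2 fold change was 7.17 (standard error 0.95, adjusted p = 1.2e-07), and it passed both limits in each fit with one library left out. The skeletal muscle genes, 61 tested, had no member with an unadjusted p below 0.05 in either direction and a median log2 fold change of -0.04. The groups did not overlap in 10 higher and 6 lower of these genes, no larger shares than the 18.1% and 16.2% of all genes.

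*rassf1.S* and *nqo1.L* passed the limits with the controls not on the *kdm5c* MO side together. Rassf1 is a scaffold of the Hippo pathway, in mammals a tumour suppressor that restrains the cell cycle. *rassf1.S* stood at 174 and 84.6 CPM in *kdm5c* MO embryos, 18.2 and 13.7 CPM in *kdm3a* MO embryos, and 11.2 and 8.98 CPM in controls (log2 fold change -3.02, standard error 0.60, adjusted p = 0.00638). *rassf1.L* followed it at 127 and 67.3 CPM, 20.2 and 15 CPM, and 5.27 and 9.87 CPM (log2 fold change -2.47, standard error 0.58, adjusted p = 0.0804). Both copies were thus high in *kdm5c* MO embryos alone. The call of *rassf1.S* was lost without *kdm5c* MO 1, *kdm3a* MO 3 or *kdm3a* MO 4 (highest adjusted p = 0.819), and under library size alone. The 54 other tested members of the rassf and hippo list had no unadjusted p below 0.05.

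Nqo1 is a quinone reductase and a classical target of the oxidative stress factor Nrf2. *nqo1.L* stood at 239 and 195 CPM in *kdm5c* MO embryos, 32.9 and 27 CPM in *kdm3a* MO embryos, 156 CPM in control 2 and 15.1 CPM in control 1. The log2 fold change was -2.86 (standard error 0.54, adjusted p = 0.00224), lost without *kdm5c* MO 1, *kdm3a* MO 3 or *kdm3a* MO 4 (highest adjusted p = 1) and under library size alone. *loc100494768.L*, a gene with no role given in the files, was counted 100 and 105 times in *kdm5c* MO embryos, 4 and 0 times in *kdm3a* MO embryos and 6 and 2 times in controls. Its log2 fold change was -6.33 (standard error 1.2, adjusted p = 0.00141), and it lost its call under library size alone and in all 4 fits with one library left out (adjusted p from 0.0124 to 0.502).

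**Figure D2:**
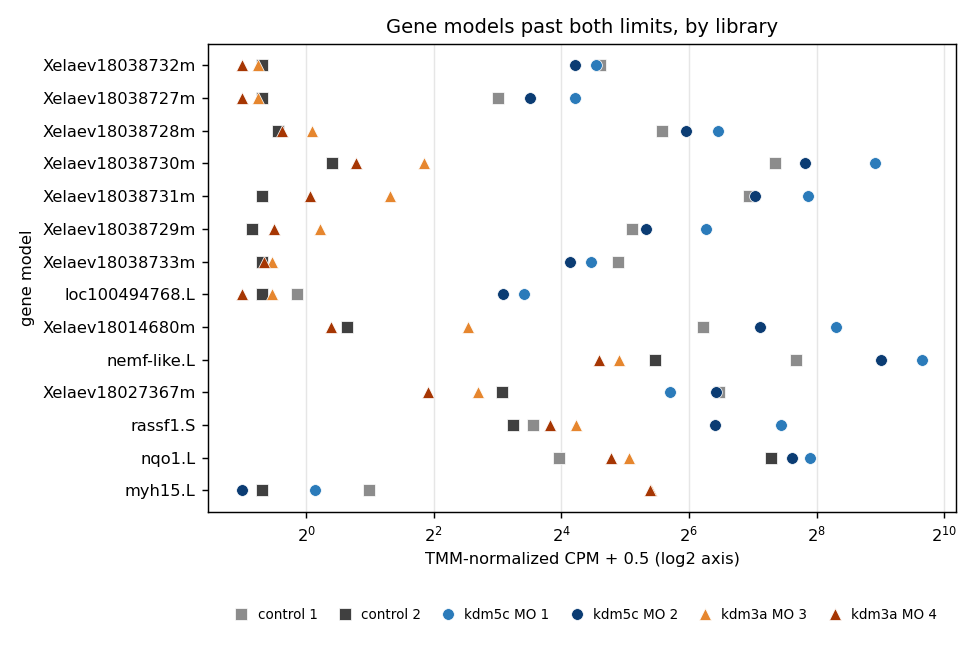
Level of the 14 gene models past both limits in each library, as TMM-normalized CPM plus 0.5 on a log2 axis, with squares for controls, circles for *kdm5c* MO and triangles for *kdm3a* MO. In 10 of the 13 lower models control 1 lies with *kdm5c* MO and control 2 with *kdm3a* MO. The 2 *kdm3a* MO points of *myh15.L* coincide at 42.1 and 41.6 CPM.

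Below these limits, several genes separated all 4 libraries widely. *dscaml1.L*, a cell adhesion molecule of neurons, stood at 84.8 and 74.2 CPM in *kdm3a* MO embryos, 11.1 and 17.2 CPM in *kdm5c* MO embryos and 10.1 and 7.45 CPM in controls (log2 fold change 2.48, standard error 0.55, adjusted p = 0.0279). *rbl2.L*, which encodes the cell cycle repressor p130 of the retinoblastoma family, stood at 78 and 66.7 CPM against 14.4 and 19.7 CPM, with controls at 18.3 and 22.5 CPM (adjusted p = 0.157). *elf3.S*, an epithelial ETS factor, stood at 64 and 47.3 CPM against 11.3 and 12.6 CPM, and its partner *elf3.L* at 33.5 and 37.5 CPM against 11.1 and 10 CPM. In each of these genes both controls lay with *kdm5c* MO.

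Among lower genes, *mgst1.L*, a microsomal glutathione transferase, stood at 132 and 67.5 CPM in *kdm5c* MO embryos and 14.3 and 5.41 CPM in *kdm3a* MO embryos, which is -3.34 on the log2 scale (standard error 0.68, adjusted p = 0.0141). *ptrhd1.L* was counted 368 and 285 times against 64 and 10 times (adjusted p = 0.03), with 201 and 209 counts in controls. *nme2*, a nucleoside diphosphate kinase listed without a copy letter, stood at 276 and 127 CPM against 32.6 and 16.1 CPM (adjusted p = 0.03). *cfp.L*, which encodes the complement regulator properdin, stood at 176 and 138 CPM against 34.5 and 33.3 CPM (adjusted p = 0.0962). Controls were on the *kdm5c* MO side for *ptrhd1.L*, on the *kdm3a* MO side for *nme2*, and on opposite sides for *mgst1.L* and *cfp.L*.

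Some genes, among them *hbs1l.L* and *mios.S*, were lower in *kdm3a* MO embryos than in all other libraries. *hbs1l.L*, which encodes a factor that rescues stalled ribosomes, stood at 17.9 and 11.6 CPM, against 59 and 74 CPM in *kdm5c* MO embryos and 62 and 59.3 CPM in controls (adjusted p = 0.154). *mios.S*, a subunit of the GATOR complex that signals amino acids to mTORC1, stood at 5.24 and 4.39 CPM, against 22.7 and 30.1 CPM and 25.2 and 21.9 CPM (adjusted p = 0.187). Its partner *mios.L* had overlapping groups (unadjusted p = 0.672). Both *hbs1l.L* and *mios.S* missed the FDR limit.

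Of the gene lists, that for cell cycle arrest and apoptosis had the largest share of members higher in *kdm3a* MO embryos. Its genes stop the cell cycle, answer DNA damage and other stress, or trigger cell death. Of 54 tested members, 14 (25.9%) were higher in *kdm3a* MO embryos with an unadjusted p below 0.05, against 1.52% of all genes, and 1 was lower (*xpc.L*, a DNA repair factor). None passed both limits. The groups did not overlap in 26 higher and 6 lower members, against 18.1% and 16.2% of all genes. The median log2 fold change was 0.44, against 0.03 for all genes. In 12 of the 14 both controls lay nearer to *kdm5c* MO.

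The cell cycle inhibitor p21, encoded by *cdkn1a*, showed it in both copies. *cdkn1a.L* stood at 97.3 and 120 CPM in *kdm3a* MO 3 and 4, 17.3 and 30.8 CPM in *kdm5c* MO 1 and 2, and 26.7 and 18.4 CPM in controls (log2 fold change 2.17, standard error 0.57, unadjusted p = 0.000276). *cdkn1a.S* stood at 43.6 and 39.8 CPM, 5.47 and 10.9 CPM, and 21.8 and 8.92 CPM (log2 fold change 2.35, standard error 0.61, unadjusted p = 0.000296). Every *kdm3a* MO value was above every other value for both copies. *mdm2*, a ubiquitin ligase, was alike, with *mdm2.L* at 173 and 119 CPM against 28.6 and 44.5 CPM and *mdm2.S* at 98.3 and 130 CPM against 28.3 and 47.6 CPM.

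Stress and death genes of the list followed. *sesn1.S*, a sestrin that restrains mTORC1, stood at 82.9 and 48.1 CPM in *kdm3a* MO embryos, 14 and 14 CPM in *kdm5c* MO embryos and 7.16 and 8.63 CPM in controls (log2 fold change 2.23, adjusted p = 0.146). *eda2r.L*, a receptor related to Fas, stood at 101 and 127 CPM against 9.92 and 37.5 CPM. *fas.L*, the Fas death receptor, stood at 23 and 27.4 CPM against 8.1 and 7.06 CPM. *ccng1.L*, a copy of cyclin G1, was closer to the spread, at 971 and 1131 CPM against 264 and 563 CPM (unadjusted p = 0.0413). The count of 14 was 10 without *kdm3a* MO 3, 9 without *kdm3a* MO 4, 13 without *kdm5c* MO 2 and 7 without *kdm5c* MO 1, and 16 under library size alone.

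**Figure D3:**
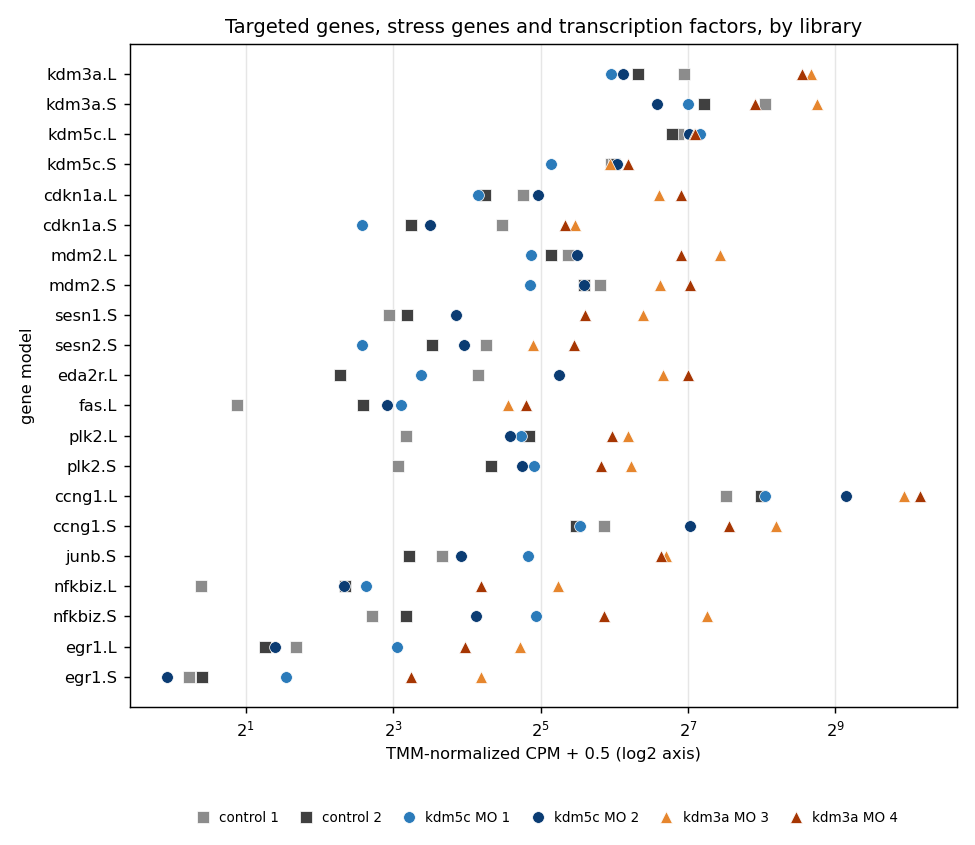
Levels of the targeted genes, of cell cycle arrest and apoptosis genes and of the transcriptional regulators *junb*, *nfkbiz* and *egr1* in each library. Values are TMM-normalized CPM plus 0.5 on a log2 axis. For *cdkn1a.L*, *mdm2.L* and *kdm3a.L* both *kdm3a* MO triangles lie to the right of all circles and squares, whereas the *kdm5c.L* points of the 6 libraries lie together.

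Inflammatory genes were in part higher in *kdm3a* MO embryos. Of 86 tested members, 9 (10.5%) were higher in *kdm3a* MO embryos with an unadjusted p below 0.05 and 2 (2.33%) lower, against 1.52% and 3.13% of all genes. The groups did not overlap in 25 higher and 6 lower members, against 18.1% and 16.2% of all genes. The list's median log2 fold change was 0.69. In the libraries, the median level relative to each gene's mean was 0.43 and -0.47 in *kdm5c* MO 1 and 2, 1.32 and 0.51 in *kdm3a* MO 3 and 4, and -1.18 and -0.84 in controls. Both controls were thus lowest, and *kdm5c* MO 1 stood close to *kdm3a* MO 4. The higher count was 32 without *kdm5c* MO 1 and 3 without *kdm3a* MO 3, where the median turned to -0.07.

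The clearest members were transcriptional regulators and a ribonuclease. *junb.S*, a subunit of AP-1, stood at 104 and 98.4 CPM in *kdm3a* MO embryos, 27.8 and 14.6 CPM in *kdm5c* MO embryos and 12.2 and 8.75 CPM in controls (log2 fold change 2.25, standard error 0.57, unadjusted p = 0.000194). *nfkbiz*, an atypical inhibitor of NF-kappaB, was higher in both copies, *nfkbiz.L* at 37.2 and 17.7 CPM against 5.67 and 4.56 CPM and *nfkbiz.S* at 152 and 57.8 CPM against 30.1 and 17 CPM. *zc3h12a.L*, a ribonuclease that degrades cytokine mRNAs, stood at 37.8 and 31.9 CPM against 10.5 and 6.68 CPM. In all of these both controls lay nearer to *kdm5c* MO.

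Among single cytokine and feedback genes, the groups overlapped for some and not for others. *csf3.L*, which encodes the granulocyte growth factor G-CSF, was counted 2702 and 281 times in *kdm3a* MO 3 and 4, 543 and 10 times in *kdm5c* MO embryos, with 2 and 4 counts for controls. *socs3.L*, a feedback inhibitor of cytokine signalling, was counted 920 and 166 times, 174 and 18 times, and 4 and 2 times. Both genes were highest in *kdm3a* MO 3, followed by *kdm5c* MO 1 and *kdm3a* MO 4, and nearly absent from controls. The MO groups overlapped, and the unadjusted p were 0.368 and 0.197. *lif.S* and *lif.L*, copies of the cytokine leukemia inhibitory factor, had counts of 159 and 80 and of 75 and 28 in *kdm3a* MO embryos, 16 and 12 and 6 and 4 in *kdm5c* MO embryos, and at most 2 in controls (unadjusted p = 0.0156 and 0.0318).

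Some demethylase genes other than the target were also higher in *kdm3a* MO embryos. Of 34 tested members, 6 (17.6%) were higher with an unadjusted p below 0.05 and 0 lower, against 1.52% and 3.13% of all genes. These 6 include both targeted *kdm3a* copies. The groups did not overlap in 17 higher and 0 lower members, against 18.1% and 16.2% of all genes. Both controls lay nearer to *kdm5c* MO in 2 of the 6, nearer to *kdm3a* MO in 1, and on opposite sides in 3. The list's median relative level was 0.42 and 0.04 in controls, -0.63 and -0.15 in *kdm5c* MO embryos, and 0.08 and 0.24 in *kdm3a* MO embryos. *kdm6b.S*, an eraser of the repressive lysine 27 mark, stood at 352 and 141 CPM in *kdm3a* MO embryos, 80.9 and 69.6 CPM in *kdm5c* MO embryos and 97.6 and 112 CPM in controls. *kdm6a.S*, its relative, stood at 57.4 and 52.1 CPM against 12.2 and 26.4 CPM, with controls at 39.5 and 34.4 CPM. The groups overlapped for the partner copies *kdm6b.L* and *kdm6a.L* (log2 fold changes 0.28 and 0.39). *jmjd1c.L*, a relative of Kdm3a, stood at 50.3 and 65.2 CPM against 24.9 and 27.1 CPM. *kdm4c.S* stood at 25.5 and 45.7 CPM against 10.1 and 16.1 CPM. The count was 3 without *kdm5c* MO 1 and 2 without *kdm3a* MO 3.

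The methyltransferases that write these marks had 1 member higher and 1 lower with an unadjusted p below 0.05. Of 28 tested these were 3.57% each, against 1.52% and 3.13% of all genes. Counts of 1 are too few to show whether the list was shifted. The groups did not overlap in 6 higher and 7 lower members, against 18.1% and 16.2% of all genes. The list's median log2 fold change was 0.04. *kmt2a.S*, a writer of lysine 4 methylation, stood at 30.3 and 35.7 CPM in *kdm3a* MO embryos and 12.5 and 15.4 CPM in *kdm5c* MO embryos, with controls at 28.8 and 25.1 CPM. *suv39h1.L*, a writer of lysine 9 methylation, stood at 9.16 and 8.52 CPM against 24.5 and 19.4 CPM, with controls at 18.4 and 17.1 CPM.

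The FGF pathway transmits growth factor signals to MAP kinase and its targets. Of its 70 tested members, 5 (7.14%) were higher in *kdm3a* MO embryos and 0 lower at an unadjusted p below 0.05. Among all genes 1.52% were higher and 3.13% lower. The list's median log2 fold change was 0.37. *egr1*, an immediate early target, led in both copies. *egr1.S* was counted 377 and 132 times in *kdm3a* MO embryos, 24 and 6 times in *kdm5c* MO embryos and 10 and 14 times in controls (log2 fold change 3.22, standard error 0.98, unadjusted p = 0.00298). *egr1.L* was counted 549 and 224 times, 77 and 28 times, and 40 and 32 times. The receptor *fgfr2* followed, with *fgfr2.S* at 112 and 82.8 CPM against 41.4 and 44 CPM. The feedback inhibitor *spry4.S* stood at 31.2 and 72.4 CPM against 20.5 and 18.8 CPM. Its controls were at 41.6 and 20.2 CPM, so control 1 lay above *kdm3a* MO 3. The groups overlapped for its partner *spry4.L*. The 5 higher members include both copies of *egr1* and of *fgfr2*. The count was 2 to 3 when any one library was left out.

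Growth genes lay on the other side. Cytosolic ribosomal proteins, the parts of the translation machine, had 19 of 102 tested members (18.6%) lower in *kdm3a* MO embryos with an unadjusted p below 0.05, against 3.13% of all genes, and 0 higher. The groups did not overlap in 34 lower and 0 higher members, against 16.2% and 18.1% of all genes, and the median log2 fold change was -1.35. In 16 of the 19 both controls lay nearer to *kdm3a* MO, and in 1, *rpl3.S*, both lay nearer to *kdm5c* MO. *rpl3.S* stood at 716 and 357 CPM in *kdm5c* MO embryos, 140 and 121 CPM in *kdm3a* MO embryos and 412 and 326 CPM in controls (log2 fold change -2.04, standard error 0.62). *rplp0.L* stood at 2243 and 3328 CPM against 634 and 978 CPM, with controls at 1244 and 1457 CPM. *rpl36.S* stood at 1048 and 432 CPM against 258 and 139 CPM, with controls at 224 and 233 CPM.

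The ribosomal list also varied widely within each MO group. Its median level relative to each gene's mean was 1.74 in *kdm5c* MO 1, 0.22 in *kdm5c* MO 2, 0.40 in *kdm3a* MO 3 and -1.11 in *kdm3a* MO 4, with controls at -0.67 and -0.50. The MO groups thus overlapped, and *kdm3a* MO 3 stood above *kdm5c* MO 2. The count of lower members was 3 without *kdm5c* MO 1 and 1 without *kdm3a* MO 4, but 77 without *kdm5c* MO 2 and 64 without *kdm3a* MO 3. Library size alone gave 7.

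Respiratory chain genes, which encode the mitochondrial complexes that make ATP, were also lower in part. Of 121 tested, 21 (17.4%) were lower with an unadjusted p below 0.05 and 1 higher (*ndufs4.S*), against 3.13% and 1.52% of all genes. The groups did not overlap in 56 lower and 2 higher members, against 16.2% and 18.1% of all genes. The median was -1.11. By library, the median level relative to each gene's mean was 1.45 and 0.33 in *kdm5c* MO 1 and 2. It was 0.37 and -0.72 in *kdm3a* MO 3 and 4, and -1.09 and -0.28 in controls. The MO groups thus overlapped here too, with *kdm3a* MO 3 slightly above *kdm5c* MO 2. *cox4i2.S*, a subunit of cytochrome oxidase, stood at 82.9 and 18.1 CPM in *kdm5c* MO embryos, 13.7 and 5.14 CPM in *kdm3a* MO embryos and 10.1 and 6.15 CPM in controls. *ndufb10.S*, a subunit of complex I, stood at 151 and 69.9 CPM against 42.4 and 19.9 CPM, with controls at 40.8 and 30.9 CPM. In 19 of the 21 both controls lay nearer to *kdm3a* MO. Without *kdm5c* MO 1 the count was 0 and without *kdm3a* MO 4 it was 1, whereas without *kdm5c* MO 2 or *kdm3a* MO 3 it was 63 or 51, and library size alone gave 5.

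Proliferation genes were lower in *kdm3a* MO embryos by small amounts in many members. The groups did not overlap in 38 lower and 2 higher of 79 tested members, against 16.2% lower among all genes, and the median was -0.48. Only 5 (6.33%) had an unadjusted p below 0.05, all lower, against 3.13% of all genes. Of these 5, both controls lay nearer to *kdm3a* MO in 1 and nearer to *kdm5c* MO in 1. In the rest the controls lay on opposite sides. *ube2c.L*, a ubiquitin enzyme of mitotic exit, stood at 121 and 71.2 CPM in *kdm5c* MO embryos, 34.9 and 29.6 CPM in *kdm3a* MO embryos and 58.7 and 42.7 CPM in controls. *gins2.L*, a part of the replicative helicase, stood at 30.8 and 27.6 CPM against 7.84 and 11.2 CPM, with controls at 12.2 and 15.9 CPM. *pcna.S*, the replication clamp, stood at 119 and 112 CPM against 47.5 and 57.1 CPM, with controls at 53.3 and 78.8 CPM. The mitotic cyclin copy *ccna2.L* stood at 112 and 56.7 CPM against 26.6 and 40.1 CPM. By library the median relative level was 0.21 and 0.05 in *kdm5c* MO embryos, -0.59 and -0.17 in *kdm3a* MO embryos, and 0.49 and 0.10 in controls, so the groups did not overlap. The count of 5 was 0 without *kdm5c* MO 1 or *kdm3a* MO 3 and 9 without *kdm5c* MO 2, and library size alone gave 1.

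**Figure D4:**
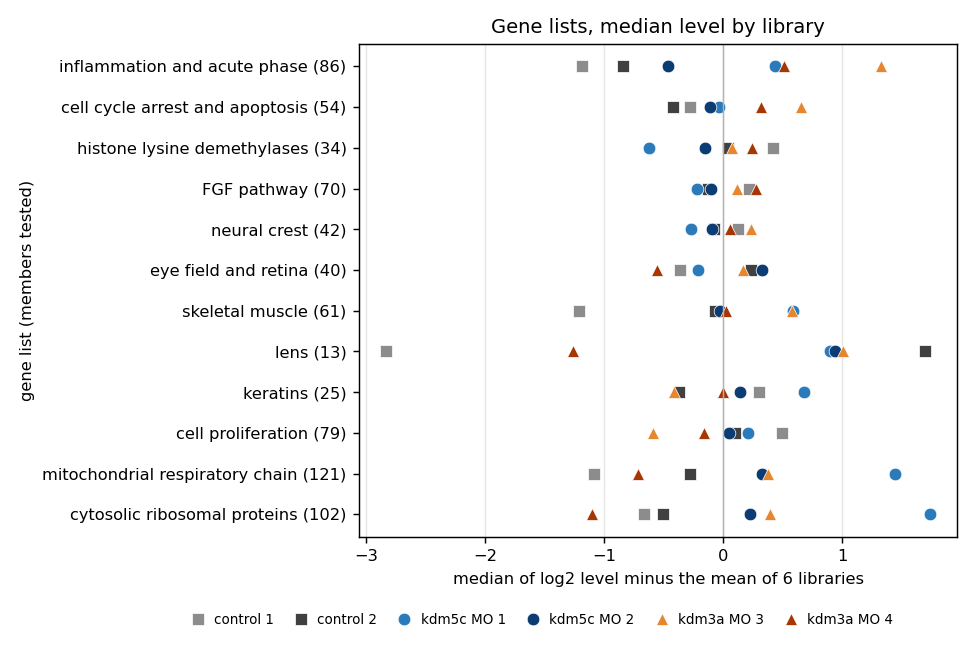
Median over the tested members of 12 gene lists of the log2 level minus the gene's mean over the 6 libraries, with symbols for libraries as in the legend and the number of members in parentheses. For cell cycle arrest and apoptosis genes both *kdm3a* MO libraries (0.66 and 0.31) lie above all others, and for cytosolic ribosomal proteins *kdm5c* MO 1 (1.74) and *kdm3a* MO 4 (-1.11) lie at opposite ends.

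Epithelial and secretory genes included a few lower members. Keratins, the filament proteins of epithelia, had 3 of 25 tested members (12%) lower with an unadjusted p below 0.05 and 0 higher, against 3.13% and 1.52% of all genes. *krt8.S* stood at 2100 and 1098 CPM in *kdm5c* MO embryos, 534 and 606 CPM in *kdm3a* MO embryos, and 2159 and 285 CPM in controls 1 and 2. *krt18.S* stood at 1630 and 465 CPM against 259 and 362 CPM, with controls at 941 and 174 CPM. The groups overlapped for *krt8.L* (log2 fold change -0.37). Of the 25 keratins, 18 had a lower and 7 a higher fold change. Their summed level was 31484 and 24434 CPM in *kdm5c* MO 1 and 2. It was 12951 and 33250 CPM in *kdm3a* MO 3 and 4, so the groups overlapped in the sum. Of 9 tested hatching and cement gland genes 3 (33.3%) were lower at the same threshold. They were *agr2.L*, *agr2.S* and *agr3.L*, disulfide isomerases of mucus-secreting cells such as those of the cement gland. *agr2.L* stood at 349 and 193 CPM against 38.5 and 101 CPM, with controls at 303 and 75.4 CPM. The groups overlapped for the cement gland markers *ag1.L* and *ag1.S* (log2 fold changes -0.79 and -1.17). Of the 9 hatching and cement gland genes, 6 had a lower and 3 a higher fold change. For *krt8.S*, *krt18.S*, *agr2.L* and *agr2.S* control 1 lay high and control 2 low. Both counts were 0 without *kdm5c* MO 1.

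Among heat shock and unfolded protein genes, 4 of 57 tested members (7.02%) were lower with an unadjusted p below 0.05 and 0 higher. Among all genes 3.13% were lower and 1.52% higher. *hsp90aa1.1.L*, a copy of the inducible cytosolic Hsp90, stood at 52.9 and 59.6 CPM in *kdm5c* MO embryos, 6.23 and 16.6 CPM in *kdm3a* MO embryos, and 5.2 and 13.3 CPM in controls (log2 fold change -2.30, standard error 0.64, unadjusted p = 0.00068), so it was high in *kdm5c* MO embryos alone. The mitochondrial co-chaperonin *hspe1* was lower in both copies, at 82.7 and 49.1 CPM against 212 and 126 CPM for *hspe1.S*. The list's median was -0.19 and turned to 0.08 under library size alone.

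Several lists, most of them of tissues, had no member below the p threshold. The lists for neural crest (42 tested), eye field and retina (40), neurons (50), skeletal muscle (61), pronephros (43), pigment cells (27), hox genes (74), Eph receptors and ephrins (23) and circadian clock (33) had 0 members with an unadjusted p below 0.05 in edgeR's exact test. Their medians lay between -0.25 and 0.39. The same count of 0 held for globins and red cells (13 tested, median -0.81) and for ionocytes and secretory epidermis (34 tested, median 0.02). Among all genes 1.52% were higher and 3.13% lower at this threshold, which leaves few genes in lists of this size. The groups did not overlap in 13 higher and 4 lower neural crest members, and in 1 higher and 8 lower eye field and retina members. Among all genes the shares without overlap were 18.1% higher and 16.2% lower. A p above the threshold does not show that these tissues were alike in both groups. In whole embryos, fewer cells of a type and less RNA per cell cannot be told apart. The lens list had a median of -0.59, with *kdm3a* MO 4 at -1.26 and *kdm3a* MO 3 at 1.0 relative to each gene's mean, and *kdm5c* MO 1 and 2 at 0.90 and 0.94.

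The genes given next, partner copies aside, had the lowest p of their lists. With an unadjusted p below 0.05, 1 member was higher and 1 lower in the Wnt list (97 tested). The same held for the BMP and TGF-beta list (104 tested) and the interferon list (25 tested). The Notch list (63 tested) had 0 higher and 2 lower, and the heart list (28 tested) 1 higher and 0 lower. Among all genes 1.52% were higher and 3.13% lower. *smad4.1.S*, a copy of the common Smad of BMP and TGF-beta signalling, stood at 4669 and 1638 CPM in *kdm5c* MO embryos, 609 and 108 CPM in *kdm3a* MO embryos, and 1887 and 109 CPM in controls 1 and 2 (log2 fold change -3.14, standard error 0.91, unadjusted p = 0.002). The groups overlapped for its partner *smad4.1.L* (log2 fold change -0.02). *hes2.L*, a Notch target repressor, was counted 92 and 40 times against 16 and 4 times (unadjusted p = 0.00281). *rspo1.L*, a secreted enhancer of Wnt signalling, was counted 168 and 63 times in *kdm3a* MO embryos against 0 and 12 times (unadjusted p = 0.0115). *nppb.S*, a natriuretic peptide of the heart, was counted 136 and 25 times in *kdm3a* MO embryos, and at most 4 times in each of the other 4 libraries (unadjusted p = 0.00261). Its partner *nppb.L* had overlapping groups, with 132 and 46 counts in *kdm3a* MO and 48 and 22 in *kdm5c* MO embryos (log2 fold change 0.52). *irf9.L*, a factor of interferon signalling, stood at 40.5 and 41.9 CPM against 5.16 and 12.7 CPM, with controls at 2.03 and 13.5 CPM.

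The L and S copies of a gene mostly moved together. Both copies were tested for 7687 symbols, and their log2 fold changes had the same sign in 71.1%. Across these symbols, which are not independent replicates and share the same libraries, Pearson's r was 0.531 and Spearman's rho 0.549. Where either copy had an unadjusted p below 0.05 (539 symbols), 496 (92%) had the same sign, and where both had it (86 symbols) all 86 did, 65 lower and 21 higher. Reads of near-identical copies can be divided between them in ways the methods do not describe, so the copies are not independent measurements.

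**Figure D5:**
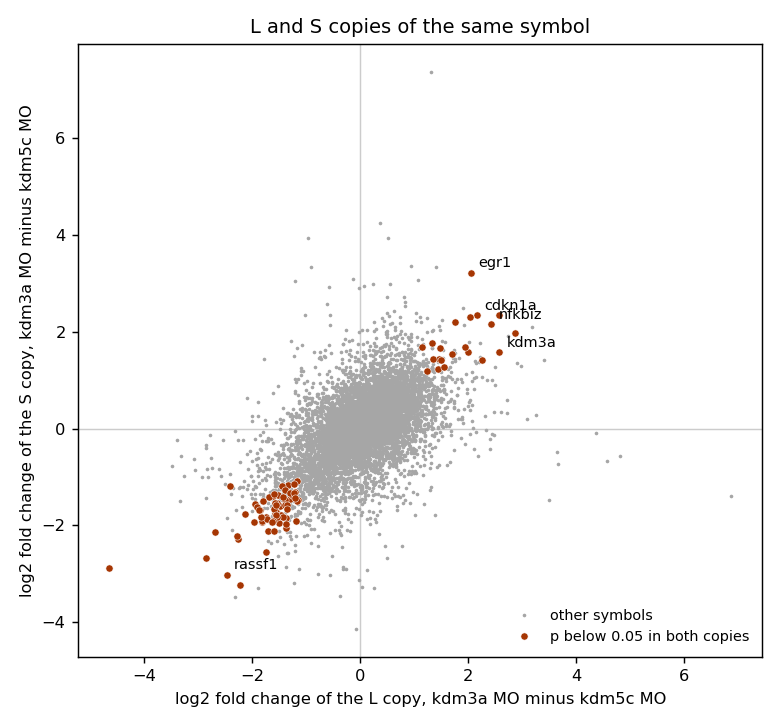
Log2 fold change of the S copy against that of the L copy, *kdm3a* MO minus *kdm5c* MO, for 7687 symbols with both copies tested, with the 86 symbols that had an unadjusted p below 0.05 in both copies in orange. All 86 lie in the lower left (65) or upper right (21).

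Pairs with both copies lower included *polr2k*, a small subunit shared by the RNA polymerases, with *polr2k.L* at 42.7 and 28.2 CPM against 10.9 and 3.92 CPM and *polr2k.S* at 53 and 21.6 CPM against 10.3 and 5.07 CPM. Pairs with both copies higher included *hivep1*, a zinc finger transcription factor, with *hivep1.L* at 25.8 and 20.1 CPM against 4.66 and 6.53 CPM and *hivep1.S* at 19.5 and 19.6 CPM against 2.83 and 5.01 CPM. *igfbp1*, a binding protein of insulin-like growth factors, stood higher too, *igfbp1.L* at 134 and 57.8 CPM against 38.2 and 21 CPM. These pairs were chosen after their values were seen.

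In some pairs the copies parted. *thop1.L*, a copy of a zinc metallopeptidase, was counted 2 times in each *kdm5c* MO library, 148 and 48 times in *kdm3a* MO embryos and 83 and 137 times in controls (log2 fold change 4.80, standard error 1.21, unadjusted p = 0.000149). The *thop1.S* copy stood at 36.4 and 65.5 CPM in *kdm5c* MO embryos and 20.5 and 48.7 CPM in *kdm3a* MO embryos (unadjusted p = 0.396). Thus only the L copy was nearly missing from *kdm5c* MO embryos. In all, the fold changes of the copies were more than 4-fold apart in 147 symbols.

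Near absence was rare. Of 35773 gene models, 12 had at most 3 counts in both *kdm5c* MO libraries and at least 20 in both *kdm3a* MO libraries. The reverse held for 3. These limits are raw counts, and the libraries differed in depth. The total was 20217436 in *kdm3a* MO 3 and 13943342 in *kdm5c* MO 1, which had the fewest models with a count (28501). The part of depth in these numbers was not tested. Of the 12, *thop1.L* was the only one with at least 20 counts in both controls. *slc2a9.S*, a copy of a urate transporter, had 0 counts in both *kdm5c* MO libraries, 25 and 24 in *kdm3a* MO embryos, and 2 and 22 in controls. *cntnap1.L*, a protein of the axon's paranodal junction, had 0 and 2 counts against 32 and 30. Of the 3 nearly absent from *kdm3a* MO embryos, 2 belonged to the run of consecutive models and the third, Xelaev18041815m, had 2 and 3 counts against 32 and 20.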

How the data were processed

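Poly(A) RNA of whole embryos was sequenced in 6 libraries. The authors mapped the reads to *X. laevis* cDNA sequences with BWA (0.7.10 per the labels) and deposited raw counts per gene model, with no normalization. Of the counts from 1 to 20, 89.7% to 95% were even, so a read pair appears to count as 2. A floor of 3 counts equals 0.148 to 0.234 CPM (counting error only). From the counts, models kept by filterByExpr were TMM-scaled and tested with exactTest in edgeR 4.0.16 and R 4.3.3 (classic dispersions, Benjamini-Hochberg adjustment over 26092 models, FDR below 0.01, fold change above 4), the tool and limits that the study names. Standard errors come from the negative binomial information at the fitted dispersions. CPM use one TMM scaling over 6 libraries, with 0.5 added before log2. The procedure was checked on simulated counts.

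Groups came from titles, and control 2 is numbered 3 in its description. The groups compared, the gene lists and the rule for named genes were chosen with earlier results of these data known. The rule named both targets, models past both limits, the 15 lowest p values with a symbol in each direction without overlap, up to 4 members per list, and all copies of *rassf1*, *csf3* and *socs3*. Genes outside this rule were picked with their values in view. Lists were described by counts and medians, with no set test. Alternatives were RLE, upper quartile and library size scaling, other filters, quasi-likelihood, DESeq2 1.42.0, all 6 libraries, summed copies, halved and thinned counts, other limits and each library left out. Leaving out libraries and library size scaling for list counts were chosen after seeing the data. Some withheld genes are not reported here.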

Additional observations from a re-analysis of the deposited data

How the results depend on the processing

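The count of 14 genes past both limits was 12 to 15 under RLE, upper quartile or library size scaling, no filter, summed copies, halved or thinned counts, 20 at an FDR of 0.05 and 14 with no limit on fold change. It was 6 with at least 10 counts in each library, 23 with DESeq2, and 0 with the quasi-likelihood test and with the dispersion of all 6 libraries, and it ran from 9 to 38 when a library was left out. Genes with an unadjusted p below 0.05 ran from 939 to 1534 under the other settings and from 670 to 2796 with a library left out. Where a library was left out, the lone library of its group was assumed to vary like the other group. The cause of these shifts was not tested.

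Of the values of 101 named genes under these settings, 1321 kept their direction and side of the limits, 51 in 14 genes lost the call, 10 in 7 genes gained it and 10 in 4 genes turned sign. The log2 fold change of *kdm5c.L* turned to 0.32 under library size alone, 0.0271 without a filter and 0.00579 with at least 10 counts, and ran from -0.0496 to 0.0976 with a library left out. With a library left out, *csf3.L* ran from -0.54 to 6.59, *csf3.S* from -1.75 to 5.78 and *socs3.S* from -0.25 to 4.17. The median of inflammation genes ran from -0.0691 to 1.7 and that of glycolysis genes from -0.13 to 0.41, and the heat shock median turned to 0.0806 under library size alone. Summed copies give no value for a single copy, and the filter of 10 counts removes some models. No paired analysis was possible because the *kdm3a* MO libraries are numbered 3 and 4 and the *kdm5c* MO libraries 1 and 2, so the groups share no number.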

Other observations

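A group of glutathione and thiol redox genes, enzymes that detoxify peroxides and reactive compounds, was put together after the values of *nqo1.L* and *mgst1.L* were seen and gets no test. Of 54 tested members 11 were lower in *kdm3a* MO embryos with an unadjusted p below 0.05 and 0 higher, against 3.13% and 1.52% of all genes. In most of these 11 both controls lay nearer to *kdm3a* MO. In the others control 1 lay nearer to *kdm3a* MO and control 2 nearer to *kdm5c* MO. Both copies of *nfe2l2*, the gene of Nrf2, were higher in *kdm3a* MO embryos without overlap (log2 fold changes 1.19 and 0.61). The median log2 fold change of the group was -0.86. Without *nqo1.L* and *mgst1.L*, 9 of 52 were lower. A group of immediate early genes was put together in the same way after *junb.S* and *egr1.S*. It had 5 of 44 tested members higher and 0 lower, against the same shares of all genes, with a median of 0.65. Without *junb.S* and *egr1.S*, 3 of 42 were higher, and these still include *egr1.L*, the partner copy of *egr1.S*.

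Genes of late tissues varied between libraries of one group. *ttr.S*, which encodes the carrier transthyretin, had 126 and 1861 counts in *kdm5c* MO 1 and 2, 2584 and 201 in *kdm3a* MO 3 and 4, and 4 and 1616 in the controls. *fabp2.L*, a fatty acid binding protein of the intestine, had 56 and 578 counts, 262 and 30, and 0 and 407 in the same order.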
